A study of Mus musculus with 2 samples.

Results

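Basophils were examined in single-cell RNA sequencing of mouse dorsal skin, in 1 library of MC903-treated skin (AD) and 1 library of ethanol-treated skin (Ctrl). The cells were chosen by their own counts, as those with at least 3 unique molecular identifiers (UMIs, 1 per captured transcript) summed over Mcpt8, Prss34, Cd200r3 and Cyp11a1, with at least 2 of these 4 genes found. Cma1 and Mcpt4, proteases of connective tissue mast cells, had to make up less than 0.5% of a cell's UMIs, and Pdgfra, a fibroblast receptor gene, had to be at 0. This gate held 57 of 19578 cells, of which 44 came from AD skin and 13 from Ctrl skin. MC903, also called calcipotriol, is a vitamin D analogue that gives an atopic dermatitis-like inflammation when it is applied to skin. Both groups were female C57BL/6J mice of 7 weeks. Their back hair had been removed with depilatory cream 24 h earlier, and a 2 × 2 cm area was treated daily for 10 days with 4.5 nmol MC903 in 100% ethanol (AD) or ethanol alone (Ctrl). The skin was collected on day 10, and the number of mice behind each library is not given in the sources used here. With 1 library per condition no difference between conditions could be tested, and cells of 1 library are not replicates, so all intervals below cover counting error only.

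Basophils are rare granulocytes that circulate in blood and enter tissue during allergic inflammation and parasite infection. They carry the high-affinity IgE receptor, respond to interleukin 3, thymic stromal lymphopoietin and interleukin 33, and are known as an early source of interleukin 4 and interleukin 13. Mouse basophils share histamine synthesis and the IgE receptor with mast cells, but are set apart by the granule protease Mcpt8 and by low or absent Kit, the stem cell factor receptor.

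The gated cells were 0.538% of the kept AD cells (44 of 8179, 95% Clopper-Pearson interval 0.391 to 0.722%) and 0.114% of the kept Ctrl cells (13 of 11399, 0.0607 to 0.195%). Among cells with a UMI of Ptprc, the pan-leukocyte gene CD45, and none of Pdgfra, with the gated cells added, they were 5% in AD (44 of 880, 3.66 to 6.65%) and 0.747% in Ctrl (13 of 1740, 0.398 to 1.27%). The 2 intervals did not overlap on either denominator, but each rests on 1 library, and the cell yield of each tissue cannot be told apart from the treatment. AD basophils held 305260 UMIs in all, with 2418 in the smallest cell, a median of 5866.5 and 22615 in the largest. The 13 Ctrl basophils held 48673 UMIs, from 1411 to 16330 per cell with a median of 3104. Of the barcodes, 35 occurred in both libraries, and 0 of these were basophils.

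Within AD, the summed gate genes ranged from 4 to 90 UMIs with a median of 12.5. No cell lay at 3 UMIs, 3 cells lay at 4 and 3 at 6. Of the 44 cells, 10 had 2 of the 4 genes, 28 had 3 and 6 had all 4. Just outside the gate, 18 AD cells had a sum of 1 UMI and 4 had a sum of 2. A further 9 cells had 3 or more UMIs from Cyp11a1 alone, 14 met the gate genes but had too much Cma1 and Mcpt4, and 9 had a Pdgfra UMI. Those 9 cells held 50 Mcpt8, 57 Il4 and 32 Il13 UMIs. The Ctrl sums were lower, from 3 to 21 with a median of 6, and 10 of the 13 cells had 2 of the genes. All 44 AD cells had an Mcpt8 UMI, against 9 of the 13 Ctrl cells, and Prss34 was at 0 in Ctrl. One Ctrl cell lay close to the mast cell limit, with 0.453% of its UMIs from Cma1 and Mcpt4. It was also the deepest gated Ctrl cell, with 16330 UMIs, and the only 1 of the 13 with a Cma1 or Mcpt4 UMI. All 51 Mcpt8 UMIs of the gated Ctrl cells lay in the other 12, so this cell passed without Mcpt8. Over 8 mast cell marker genes, Cma1 and Mcpt4 among them, the 13 Ctrl cells had 159 of their 48673 UMIs. The 44 AD cells had 42 of 305260. Whether this Ctrl cell is a basophil or a mast cell was not tested.

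The label was checked against basophil markers the gate did not use. Ms4a2, the IgE receptor beta chain, was found in 27 of the 44 AD cells and Fcer1a, its alpha chain, in 22. Gata2, a transcription factor of basophils and mast cells, was found in all 44. Of 15 known basophil genes outside the gate, 12 reached the level filter described below, and 10 of these were at least 4-fold higher than in other AD leukocytes, beside 4.55% of all genes. Of the 12, 5 (Ms4a2, Fcer1a, Itga2, Gata2 and Il4) reached the filter through the basophils alone and so had to be higher, and the count is a description. With 50 CPM added 7 were at least 4-fold higher, Fcer1a, Il1rl1 and Itga2 no longer among them, and with the mean CPM over cells 9, without Fcer1a. After each cell was thinned to 1000 UMIs the log2 ratio of Il1rl1 was 1.97, also under 4-fold. Ccr3 and Ptgdr2, receptors for eotaxin and prostaglandin D2, were at 0 UMIs and, with Il3ra at 8 UMIs, did not reach it. The gate itself limited Cma1, Mcpt4 and Pdgfra, so their low counts are no check. Of the mast cell genes it did not use, Tpsb2, Tpsab1, Mrgprb1 and Mrgprb2 had 0 UMIs, Kit had 1, and Cpa3, a carboxypeptidase that basophils also express at low level, had 40 of the 42 UMIs of the 8 mast cell markers. The 8 T cell markers summed to 15 UMIs and the 8 macrophage markers to 22, with Csf1r and the C1q genes at 0. The 8 eosinophil markers summed to 1 UMI, the 6 NK cell markers to 0 and the 6 B cell markers to 1. The 6 fibroblast markers summed to 61 UMIs or 199.8 counts per 1000000 (CPM), most of it Dcn with 56, while Col1a1 was at 0. In the other Ptprc-positive AD cells the same 6 genes had 178.6 CPM. The 7 neutrophil markers had 83 UMIs, of which Retnlg had 44 in a single cell, and the 6 keratinocyte markers 45 (147 CPM against 94.4 in the other cells), of which Krt5 had 23 in 2 cells. The 6 dendritic cell markers had 4 UMIs, the 5 endothelial markers 23, all of them Pecam1 (75.3 CPM against 44.7 for the 5 genes), and the 5 erythrocyte markers 22. Of the 5 platelet markers 36 of 37 UMIs were Itga2b. The 8 ILC2 markers had 562 UMIs, of which 348 were Il13, with Il5 and Areg at 0.

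In a clustering of 2719 Ptprc-positive or gated cells of both libraries, run without the 4 gate genes, Cma1 and Mcpt4, 40 of the 44 AD basophils and 12 of the 13 Ctrl basophils fell into 1 of 21 clusters. That cluster held 59 cells and 0 mast-gated cells, and its leading genes were Ccl3, Il6, Il4, Acod1, Hdc, Il13, Ifitm1, Gata2, Lif and Osm. The remaining 4 AD basophils and 1 Ctrl basophil lay in a cluster led by the stromal genes Cfd, Col1a2, Sparc and Col1a1. These 4 AD cells had 11542 to 22615 UMIs and held all 73 Rgs5 UMIs, 171 of 172 Sparcl1 UMIs and 353 of 355 Fabp4 UMIs of the AD basophils. They also held 824 of the 12324 Ccl3 UMIs and 35 of the 618 Mcpt8 UMIs, but 1 of the 692 Il4 UMIs. The levels of these stromal genes in the AD basophils thus came almost wholly from 4 cells.

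For each gene, UMIs were summed over the 44 AD basophils and over the 836 other Ptprc-positive AD cells without a Pdgfra UMI, and divided by each population's total. Of those 836 cells, 352 were T-gated (UMIs of the Cd3 genes), 157 macrophage-gated, 50 gated as type 2 innate lymphoid cells (ILC2), 40 neutrophil-gated, 21 mast-gated and 216 in no gate. The log2 ratios over these other AD cells have 10 CPM added to both levels, which understates the ratio of low genes. Folds, and the log2 ratios of AD over Ctrl basophils below, are of the levels as they stand. Of 3557 genes with at least 50 CPM in either population, 162 were at least 4-fold higher in basophils (4.55%) and 261 at least 4-fold lower (7.34%). At a fold of 2 the numbers were 391 (11.0%) and 934 (26.3%). The median over all 3557 genes was a log2 ratio of -0.49, so a gene at 0 stood above most genes. Of the 3557 genes, 354 passed the filter through the basophils alone and could only be higher there, 1258 passed through the other cells alone and could only be lower, and 1945 passed in both. Of the 162 genes, 41 had more than 50% of their basophil UMIs in a single cell, and 129 remained when a gene had to be found in at least 10% of the cells of either population. Without the 4 cells of the stromal cluster (an alternative added once the data were seen), 139 genes were higher and 399 lower. The split also moved with the scaling. With gate, mitochondrial and ribosomal protein genes left out of the totals, 4367 genes passed the filter, 154 higher and 401 lower (median -0.70). With the mean CPM over cells 3528 genes passed, 123 higher and 326 lower (median -0.65).

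**Figure D1:**
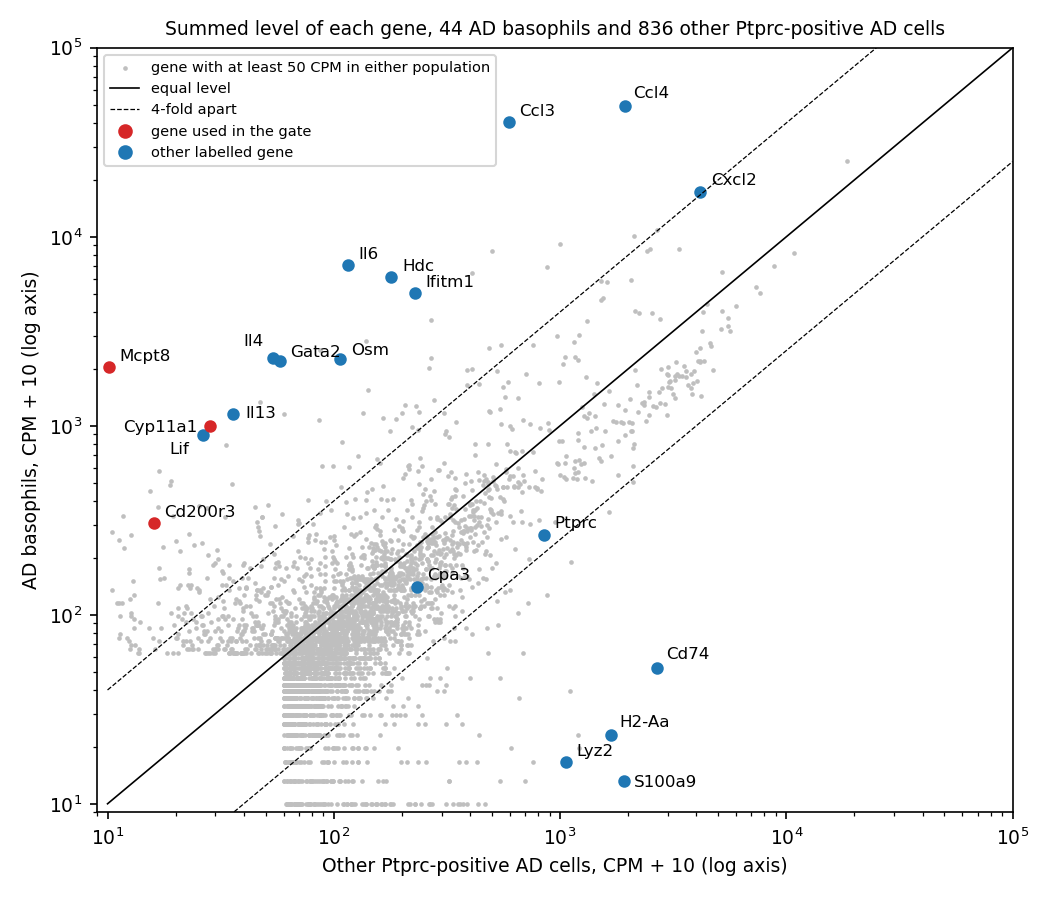
Summed level of each of the 3557 genes in the 836 other Ptprc-positive AD cells (horizontal) and the 44 AD basophils (vertical), in CPM with 10 CPM added, on log axes. Red points are gate genes and blue points other labelled genes; Ccl3, Ccl4, Il6, Hdc and Il4 lie far above the dashed 4-fold line, and Cd74, H2-Aa, Lyz2 and S100a9 far below the lower one.

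Among the gate genes, which the rule itself fixes, Mcpt8 had 618 UMIs in the 44 AD basophils and 1 in the 836 other cells. Per cell it ranged from 1 to 81 UMIs with a median of 5. Cyp11a1, which makes pregnenolone from cholesterol, had 989 CPM in AD basophils and 713 CPM in AD mast-gated cells. Cd200r3, an activating receptor, had 294.8 and 308.9 CPM in the same populations, and Prss34 had 10 UMIs in 6 basophils. Of the 4, Mcpt8 was thus the gene that was at 0 in the 40 mast-gated cells.

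The type 2 cytokines are described next. Il4 had 692 UMIs in the 44 AD basophils, or 2267 CPM, against 256 UMIs or 43.7 CPM in the other Ptprc-positive cells, a 51.9-fold difference (95% interval 44.9 to 60.1). Il13, which shares a receptor chain with Il4, had 348 UMIs or 1140 CPM against 25.9 CPM, a 43.9-fold difference (36.2 to 53.5). Both levels were also above those of the gated populations that could produce these cytokines: Il4 had 382 CPM in mast-gated, 70.1 CPM in T-gated and 14.1 CPM in ILC2-gated AD cells, and Il13 had 132, 37.0 and 14.1 CPM.

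The 44 cells held 64.6% of all Il4 UMIs of the kept AD cells (692 of 1072, Clopper-Pearson interval 61.6 to 67.4%), although they were 0.538% of them. T-gated cells held 180 Il4 UMIs, mast-gated cells 52, fibroblasts (Pdgfra of 2 or more) 73 and cells in no gate 71. Of the Il13 UMIs, basophils held 57.8% (348 of 602, 53.7 to 61.8%), T-gated cells 95 and cells in no gate 117. In Ctrl skin Il4 had 133 UMIs, of which 78 lay in mast-gated cells and 16 in basophils, and Il13 had 102 UMIs, of which 35 lay in T-gated cells and 5 in basophils. The population that held most Il4 UMIs was therefore the mast-gated cells in Ctrl and the basophils in AD.

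**Figure D2:**
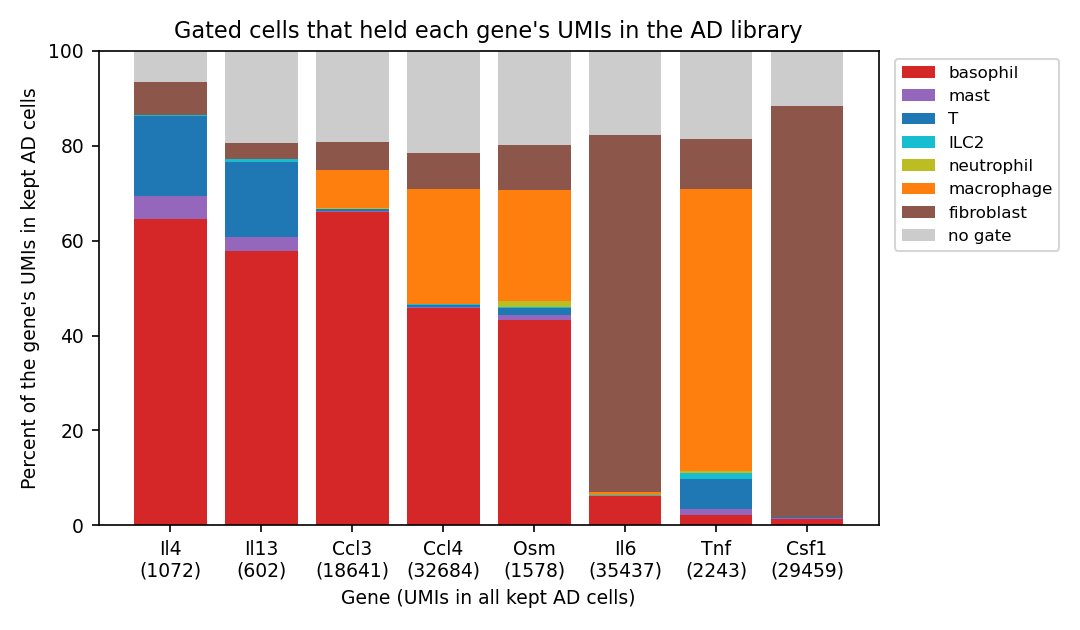
Percent of each gene's UMIs in kept AD cells that lay in each gate, with the gene's total under its name; colours are gates and grey is cells in no gate. Basophils (red) held 64.6% of Il4, 57.8% of Il13 and 66.1% of Ccl3, but 6.09% of Il6 and 1.37% of Csf1, which lay mostly in fibroblasts (brown).

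Il4 and Il13 were uneven among the 44 cells. Il4 had a UMI in 26 cells (59.1%), with a median of 1 UMI and a highest value of 194, and the 5 highest cells held 67.5% of its UMIs. Il13 had a UMI in 24 cells (54.5%), with a median of 2 and a highest value of 75, and its 5 highest cells held 60.9%. A UMI of both genes was found in 17 cells, of Il4 alone in 9, of Il13 alone in 7 and of neither in 11. The cell with 194 Il4 UMIs had 4 of Il13, and across the 44 cells of this 1 library the 2 levels had a Spearman rho of 0.26, which is no finding in counts this sparse. As a background, Il4 had a UMI in 0.414% and Il13 in 0.322% of 4348 AD fibroblasts with a median of 7292 UMIs, more than the 5866.5 of basophils. Of the 73 Il4 UMIs in fibroblasts, 56 lay in 6 cells that also met the gate genes, and without these 6 the shares were 0.345 and 0.253%. Thinned to 1000 UMIs per cell, Il4 was found in 36.4% of basophils, 32.1% of 28 mast-gated cells, 2.67% of T-gated cells and 0.0465% of fibroblasts. No basophil was too shallow for this, but 12 mast-gated cells, 1 T-gated cell and 48 fibroblasts were.

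**Figure D3:**
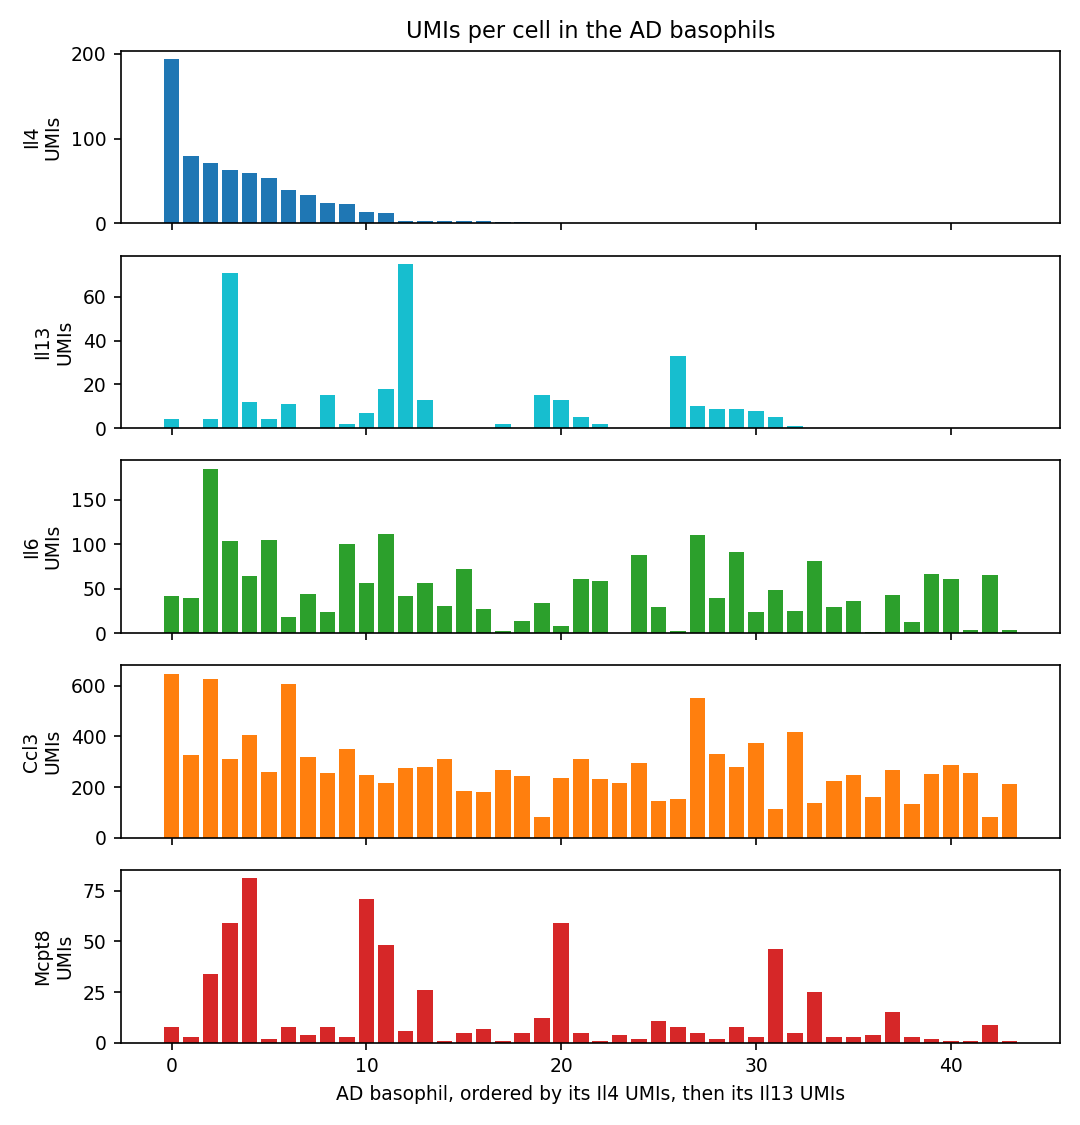
UMIs of 5 genes in each of the 44 AD basophils (bars), ordered by Il4 and then Il13. Il4 and Il13 lie in a minority of high cells, the highest with 194 and 75 UMIs, while Ccl3 has 82 UMIs or more in each cell.

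Other cytokines of the type 2 group were not detected. Il5, Il31 and Areg, which encodes amphiregulin, had 0 UMIs in the AD basophils. By counting alone, 0 of 44 cells allows a share of cells with a UMI of up to 8.04% (Clopper-Pearson). Il5 and Il31 had 4 and 2 UMIs in all kept AD cells, so their source was not detectable at this depth. Areg had 1709, of which 1090 lay in cells of no gate and 461 in T-gated cells, and its level in the other Ptprc-positive cells was at least 15.6-fold higher than in basophils, counted against a floor of 3 UMIs.

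Of the 26 cytokine genes on a list of alarmins, growth factors and interleukins, 16 passed the level filter, 10 were at least 2-fold higher in AD basophils and 3 at least 2-fold lower, with a median log2 ratio of 2.03. Over all genes the shares were 11.0% and 26.3% and the median -0.49. Of the 16 genes, 7 passed through the basophils alone and had to be higher, and the 3 lower ones passed through the other cells alone, so the count describes those genes and no more. Il6, an acute phase cytokine, had 7073 CPM in AD basophils and 105.8 CPM in the other Ptprc-positive cells, a 66.8-fold difference (61.1 to 73.2), and was found in 43 of the 44 cells with a median of 42 UMIs. The size of this difference moved with the choice of cells by more than the interval, from a log2 ratio of 5.93 to 4.84 when Ptprc-positive cells with a Pdgfra UMI were kept in the comparison, and to 5.31 when 3 of the 4 gate genes were required. Fibroblasts had 734 CPM and, being many, held 26683 of the 35437 Il6 UMIs, against 2159 in basophils. T-gated cells, with a median depth of 5728 UMIs, had an Il6 UMI in 10.1%.

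Further secreted factors were in the same range. Lif, a cytokine of the interleukin 6 family, had 884.5 CPM against 16.4 (54.0-fold, 42.6 to 68.9), in 23 cells. Osm, encoding oncostatin M of the same family, had 2234 against 97.0 CPM (23.0-fold, 20.6 to 25.8), in all 44 cells with a range of 1 to 68 UMIs, and basophils held 682 of its 1578 UMIs. Hgf, hepatocyte growth factor, had 498 against 9.05 CPM (55.0-fold, 40.0 to 76.7), in 36 cells. Csf1, the macrophage growth factor, had 1323 against 37.0 CPM, though fibroblasts held 25475 of its 29459 UMIs. Its log2 ratio of 4.83 rested on the comparison cells, and was 3.21 with cells that had a Pdgfra UMI among them and 5.47 when these cells needed 2 Ptprc UMIs. The inflammatory cytokines Tnf, with 160.5 CPM against 300.3, and Il1b, with 3941 against 2528, were within 2-fold of the other cells by summed level. This call did not hold under every alternative. The log2 ratio of Il1b went from 0.64 to 1.22 with the mean CPM over cells and 1.27 after thinning, and that of Tnf from -0.86 to -1.36 after thinning, -1.01 with 3 of the 4 gate genes required and -1.06 with gate, mitochondrial and ribosomal protein genes left out of the totals. Il1b UMIs were found in 22 of the 44 basophils.

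Chemokines took a large part of the basophil RNA. Ccl3 and Ccl4, which attract monocytes and T cells, together made up 8.94% of all AD basophil UMIs. Ccl3 ranged from 82 to 648 UMIs per cell with a median of 259.5, and Ccl4 from 27 to 827 with a median of 308, so both were found in all 44 cells. Ccl3 was 69.1-fold higher than in the other Ptprc-positive cells (66.5 to 71.7), with 40372 CPM against 585, and Ccl4 25.5-fold higher (24.9 to 26.1), with 49070 against 1925. The Ccl3 log2 ratio was 6.09, and it was 5.13 when 3 of the 4 gate genes were required, which put gated cells with 2 of them among the comparison cells, and 6.70 when the comparison cells needed 2 Ptprc UMIs. Macrophage-gated cells, known producers of both, had 913 CPM of Ccl3 and 4902 CPM of Ccl4. Basophils held 12324 of 18641 Ccl3 UMIs (66.1%) and 14979 of 32684 Ccl4 UMIs (45.8%) of the kept AD cells, and macrophage-gated cells held 1473 and 7911. With 3 of the 4 gate genes required, the basophil shares were 48.2 and 33.8%. Of the 14 chemokine genes on the list 13 passed the filter, 6 at least 2-fold higher and 6 at least 2-fold lower. Ccl6 was at 6388 against 396 CPM and Cxcl2, which draws in neutrophils, at 17336 against 4164, while Ccl2 had 36.0 against 535 CPM and Ccl5 1 UMI against 533 CPM. Over all genes the shares were 11.0% and 26.3%, and the 6 lower genes passed through the other cells alone. With 50 CPM added, or with the mean CPM over cells, 5 were at least 2-fold higher and 6 lower.

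**Figure D4:**
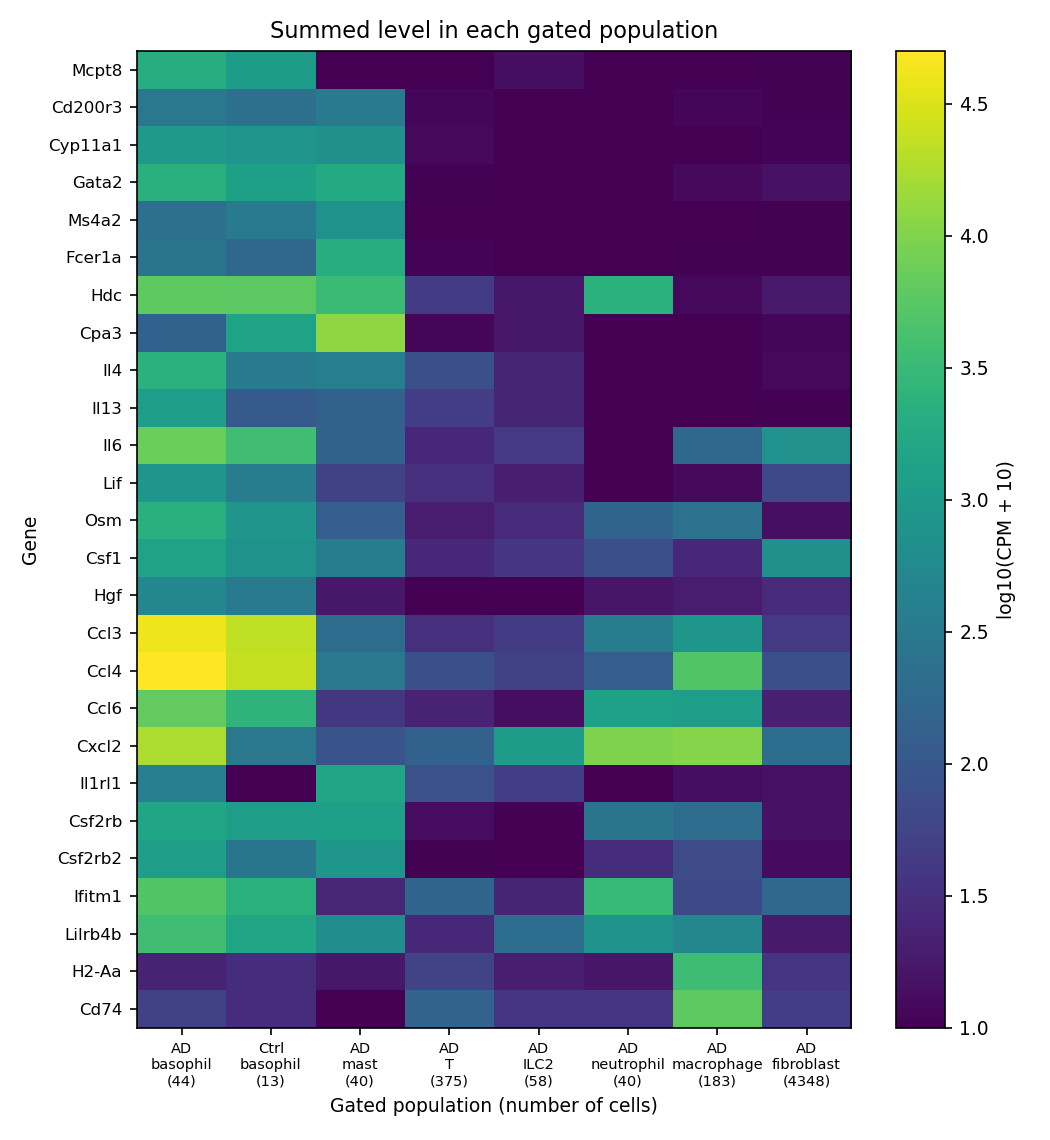
Level of 26 genes (rows) as log10 of CPM plus 10 in each gated population (columns, with the number of cells); yellow is high and dark purple low. AD and Ctrl basophils share high Ccl3, Ccl4 and Hdc, Mcpt8 is found in basophils, and mast-gated cells share Gata2, Hdc, Ms4a2 and Fcer1a with them but had 12342 CPM of Cpa3 against 131 in AD basophils.

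Among genes of the IgE receptor, Ms4a2 had 222.8 CPM in AD basophils and 14.0 CPM in the other cells (15.9-fold, 11.4 to 22.2), and Fcer1a had 252 against 37.2 CPM (6.78-fold, 5.16 to 8.83). Mast-gated cells had more of both, with 758 and 2008 CPM. Fcer1g, the signalling chain shared with other receptors, had 953 against 605 CPM. Of the 20 genes for IgE and IgG receptors and their proximal signalling, 15 passed the filter, 3 at least 2-fold higher (Ms4a2, Fcer1a and the adaptor Lat2) and 5 at least 2-fold lower, with a median of -0.62. The 3 higher genes passed through the basophils alone, and over all genes the shares were 11.0% and 26.3% and the median -0.49. With 50 CPM added 3 were at least 2-fold higher and 2 lower, and with the mean CPM over cells 4 and 6. The kinases Syk and Lyn had 88.5 and 62.2 CPM against 94.7 and 135.4.

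Receptors for the cytokines that act on basophils were uneven. The shared beta chain of the interleukin 3, interleukin 5 and GM-CSF receptors, Csf2rb, had 1533 against 131 CPM (11.7-fold, 10.4 to 13.1), and its interleukin 3-specific copy Csf2rb2 had 1143 against 50.5 CPM. These are near-identical genes, so reads could have been split between them. Il1rl1, the interleukin 33 receptor, had 393 against 66.9 CPM (5.87-fold, 4.75 to 7.23) and was found in 34 of the 44 cells. Mast-gated AD cells had more of it, with 1471 CPM. Crlf2, a chain of the thymic stromal lymphopoietin receptor, had 88.5 CPM against 93.7, and its partner Il7r had 167 against 322. Il4ra was lower, with 29.5 against 148 CPM. Of the 30 cytokine receptor genes, 25 passed the filter, 4 at least 2-fold higher and 10 at least 2-fold lower, beside 11.0% and 26.3% of all genes, and 13 of the 25 passed through the other cells alone.

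Genes of amine and lipid mediators are described here. Hdc, the enzyme that makes histamine, had 6116 against 170 CPM (36.0-fold, 33.3 to 38.9) and between 8 and 90 UMIs in each of the 44 cells, with a median of 41. Mast-gated cells had 3369 CPM and neutrophil-gated cells 2292. The Hdc log2 ratio over the other Ptprc-positive cells was 5.09, and lay between 4.41 and 5.37 under 15 alternatives. Slc18a2, which loads histamine into granules, had 478 against 8.88 CPM. Alox5ap, needed for leukotriene synthesis, had 1363 against 267 CPM and Alox5 81.9 against 14.5, while Ltc4s, which makes leukotriene C4, had 0 UMIs against 55.5 CPM. Of the 17 genes of the list 10 passed the filter, 7 at least 2-fold higher and 2 at least 2-fold lower, beside 11.0% and 26.3% of all genes. Of the 10, 4 (Slc18a2, Alox5 and Alox15 among them) passed through the basophils alone and could only be higher, 3 through the other cells alone, and the 3 that passed in both, Hdc and Alox5ap among them, were at least 2-fold higher. Alox15, a lipoxygenase, had 21 UMIs in 13 of the 44 AD cells and 8 UMIs in the 836 other cells. The granule list holds many mast cell proteases, and of its 17 genes 9 passed, 4 at least 2-fold higher and 4 lower, beside the same 11.0% and 26.3%. Mcpt8, a gate gene, passed through the basophils alone, and Cma1, Mcpt4 and Tpsb2 passed through the other cells alone, the first 2 of them limited by the gate itself. Gzmb, the protease granzyme B, had 209 UMIs, but in 8 of the 44 cells.

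Gata2 led the transcription factors, with 2185 against 47.8 CPM (45.7-fold, 39.7 to 52.8) and 2 to 47 UMIs in each of the 44 cells. Mast-gated cells had 1846 CPM. Cebpa, which favours basophils over mast cells in progenitors, had 229 CPM in AD basophils, 0 UMIs in mast-gated cells and 16.0 CPM in the other Ptprc-positive cells. Of the 35 factors of the list, 26 passed, with 4 at least 2-fold higher (Gata2, Cebpa, Cebpb and Runx1) and 12 lower, beside 11.0% and 26.3% of all genes. Gata2 and Cebpa passed through the basophils alone and 8 factors through the other cells alone. Among the 12 were the lymphocyte factors Gata3, Tcf7 and Runx3. Gata2 binds the letters GATA in DNA, so the 250 bases before the start of genes were searched for AGATAA and TGATAA on both strands. Of the 20 genes with the highest log2 ratio, 17 had a promoter in the RefSeq table for GRCm38.p6, and 5 of the 17 (29.4%) held either motif, against 18.8% of the 27025 genes of the table. One of the 5 is Rgs5, whose 73 UMIs all lay in 1 cell of the stromal cluster. The 3 shown were all picked from the 5 with a match, and no promoter without a match is shown. They are a type 2 cytokine, Il6 and a gene with 3 UMIs in the other cells. Capitals mark the motif, read on the strand of the gene.

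Il13, GRCm38.p6, chr11:53634703-53634952, minus strand: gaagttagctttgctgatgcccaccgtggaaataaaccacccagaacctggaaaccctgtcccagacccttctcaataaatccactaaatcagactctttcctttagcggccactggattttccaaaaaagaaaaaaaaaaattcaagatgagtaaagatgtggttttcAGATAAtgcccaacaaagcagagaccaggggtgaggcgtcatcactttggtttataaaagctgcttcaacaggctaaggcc
Il6, GRCm38.p6, chr5:30012864-30013113, plus strand: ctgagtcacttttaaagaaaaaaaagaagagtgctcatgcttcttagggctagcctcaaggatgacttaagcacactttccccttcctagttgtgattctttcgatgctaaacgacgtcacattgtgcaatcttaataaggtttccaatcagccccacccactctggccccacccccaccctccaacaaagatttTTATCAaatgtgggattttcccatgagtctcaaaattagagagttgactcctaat
Grm6, GRCm38.p6, chr11:50850435-50850684, plus strand: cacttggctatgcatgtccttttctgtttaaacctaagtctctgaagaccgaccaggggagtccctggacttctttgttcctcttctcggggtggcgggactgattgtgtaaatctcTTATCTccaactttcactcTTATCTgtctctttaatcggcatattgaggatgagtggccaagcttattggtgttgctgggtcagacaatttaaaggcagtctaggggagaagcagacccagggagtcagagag

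In Il13 the motif lay 81 to 76 bases before the start. In Il6, where it reads TTATCA, the complement of TGATAA, it lay 55 to 50 bases before it. Grm6, a glutamate receptor gene, held the complement of AGATAA at 2 places, and had 81 UMIs in 22 of the 44 basophils. These matches are descriptions of the letters in these windows, and a window without a match says nothing about Gata2. Il4 and Il13 lie close together in the GENCODE M21 annotation of GRCm38, at chr11:53602982-53618669 and chr11:53631324-53634702 on the minus strand. Ccl3, at chr11:83647844-83649355 on the minus strand, lies near Ccl4, at chr11:83662584-83664683 on the plus strand. Mcpt8 lies at chr14:56082166-56085273 on the minus strand and Gata2 at chr6:88193891-88207032 on the plus strand.

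Single surface and inhibitory receptors were also high. Ifitm1, an interferon-induced membrane protein, had 5006 against 217 CPM in 40 of the 44 cells. Lilrb4b had 3607 against 259 CPM, and its near-identical copy Lilrb4a, an inhibitory receptor, 806 against 99.2. The integrin genes Itga2b, also known from platelets, and Itga2 had 118 against 3.07 CPM and 147 against 17.6. Itga2b was at a similar level in mast-gated AD cells, with 125 CPM. Of the 26 adhesion and surface genes, 22 passed the filter, with 8 at least 2-fold higher and 6 lower, beside 11.0% and 26.3% of all genes, and 6 passed through the basophils alone and 5 through the other cells alone. Of the 21 paired inhibitory and activating receptors 12 passed, 3 at least 2-fold higher and 4 lower. The 4 passed through the other cells alone, and Cd244a, 1 of the 3, through the basophils alone. Of the 21 chemoattractant receptors 10 passed, 4 at least 2-fold higher (Cxcr2, Cxcr4, C5ar1 and C3ar1) and 3 lower, the 3 through the other cells alone and Cxcr2 through the basophils alone. Cxcr4, the receptor for Cxcl12, had 613 against 204.5 CPM, and C5ar1, the complement C5a receptor, 193 against 60.8.

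Of all 3557 genes, 2232 were within 2-fold of the other cells. Of the 18 JAK, STAT and feedback genes 14 passed, 11 of them within 2-fold, with a median of 0.08, and Pim1, a STAT5 target kinase, had 2758 against 1137 CPM. Of the 11 survival and apoptosis genes 9 passed, 5 within 2-fold, 1 at least 2-fold higher and 3 lower, beside 11.0% and 26.3% of all genes. The higher gene was Bcl2l11, which encodes the pro-apoptotic Bim, with 482 against 229 CPM, and it was under 2-fold with 50 CPM added. The 3 lower ones passed through the other cells alone and could only be lower. Of these, Bcl2a1d had 0 UMIs against 353 CPM and Bcl2a1b, a near-identical copy, 3 UMIs against 597 CPM.

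Antigen presentation genes had few UMIs. Of the 10 genes of the MHC class II list 7 passed the filter, and these 7 were at least 4-fold lower in AD basophils, beside 7.34% of all genes. They passed through the other cells alone, so they could not have been higher in basophils. H2-Aa had 4 UMIs in the 44 cells against 1663 CPM in the other cells, where macrophages and dendritic cells are included, and the invariant chain gene Cd74 had 13 UMIs, or 42.6 CPM, against 2685. With 50 CPM added 4 of the 7 were at least 4-fold lower, and with the mean CPM over cells 6. H2-Aa, H2-Eb1, H2-Ab1 and Cd74 were among the 10 genes with the lowest ratio, as were Ctss, S100a9, S100a8, Lyz2 and Wfdc17. These 10 were picked for that ratio and passed through the other cells alone, with at most 13 UMIs each in the basophils. Of the cell division genes, Mki67 had 3 UMIs and Top2a 1 UMI in the 44 cells. Of the 15 genes of that list, 5 passed the filter and 4 were at least 2-fold lower, beside 26.3% of all genes. Mki67, Top2a and 1 other of the 5 passed through the other cells alone and could only be lower, so nothing is read from the count.

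Immediate early and heat shock genes are given because cell isolation can also raise them. Of the 16 immediate early genes, 15 passed the filter, 8 at least 2-fold higher and 1 lower, with a median of 1.05, beside 11.0% and 26.3% of all genes and their median of -0.49. Of the 15, 14 passed in both populations, and with the mean CPM over cells 4 were at least 2-fold higher and 2 lower. Of these, Ier3 had 6889 against 862 CPM, while Fos had 924 against 1577. Of the 6 heat shock genes, which all passed in both populations, 4 were at least 2-fold higher and 1 lower, beside the same shares. Their part in the other differences was not tested.

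The Ctrl gate had few cells, and the deepest lay close to the mast cell limit and had no Mcpt8 UMI, so levels are given side by side. Il4 had 16 UMIs in 4 of the 13 Ctrl basophils, 12 of them in 1 cell, against 692 in 26 of 44 AD basophils. This was 329 against 2267 CPM, 6.90-fold higher in AD (4.22 to 12.1). Il13 had 5 UMIs in 4 Ctrl cells, or 103 against 1140 CPM, 11.1-fold higher in AD (4.71 to 34.4). As a log2 ratio this was 3.47, and it was 2.56 with a gate of at least 6 UMIs. After thinning to 1000 UMIs the share of cells with an Il4 UMI was 36.4% in AD and 15.4% in Ctrl.

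Cxcl2 had 14 UMIs in Ctrl basophils, or 288 CPM, and 17336 CPM in AD, 60.3-fold higher (35.9 to 110). Csf2rb2 was 4.28-fold higher in AD (2.47 to 8.12), with 1143 against 267 CPM. Il1rl1 had 120 UMIs in AD and 0 in Ctrl, which makes it at least 6.38-fold higher against a floor of 3 UMIs summed over the 13 cells. Without the deepest Ctrl cell, the one close to the mast cell limit, Csf2rb2 was 3.08-fold higher in AD and Il1rl1, still at 0 UMIs in Ctrl, at least 4.24-fold. Cish, induced by STAT5 signalling, had 95 UMIs in AD and 1 in Ctrl, a 15.1-fold difference with an interval from 2.65 to 605. Its log2 ratio of 3.92 was 2.91 with the gate of 6 UMIs and 3.33 without the same Ctrl cell. All 4 genes thus had higher levels in the AD cells, with few Ctrl UMIs behind each.

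Other genes are given in the same way. Hdc had 5938 CPM in Ctrl and 6116 in AD (1.03-fold, 0.910 to 1.17), Gata2 1253 and 2185 (1.74-fold, 1.34 to 2.31), Mcpt8, which the gate itself conditions on, 1048 and 2025 (1577 in Ctrl without the cell close to the mast cell limit), and Ms4a2 329 and 223. Ccl3 had 22168 and 40372 CPM, Il6 3698 and 7073, and both were found in most cells of either group. Cpa3 went the other way, with 1377 CPM in Ctrl and 131 in AD. The Ctrl cell close to that limit decided several of these values. Without it, AD levels over Ctrl levels gave a log2 ratio of 2.20 for Il4 instead of 2.79, 2.88 for Il13 instead of 3.47, 0.28 for Ccl3 instead of 0.86, 0.35 for Il6 instead of 0.94, 0.26 for Gata2 instead of 0.80, 5.32 for Cxcl2 instead of 5.91, -0.54 for Hdc instead of 0.04, 0.26 for Ms4a2 instead of -0.56 and -2.24 for Cpa3 instead of -3.39. With a gate of at least 6 UMIs, which left 8 Ctrl cells, it was 1.97 for Il4, 4.96 for Cxcl2, 0.15 for Ccl3, -0.61 for Hdc, -2.23 for Cpa3 and 0.93 for Ms4a2. The 6 fibroblast markers summed to 1870 CPM in Ctrl basophils (91 UMIs, of which Col1a1 27) and to 199.8 CPM in AD, and the part of this RNA in the differences was not tested.

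**Figure D5:**
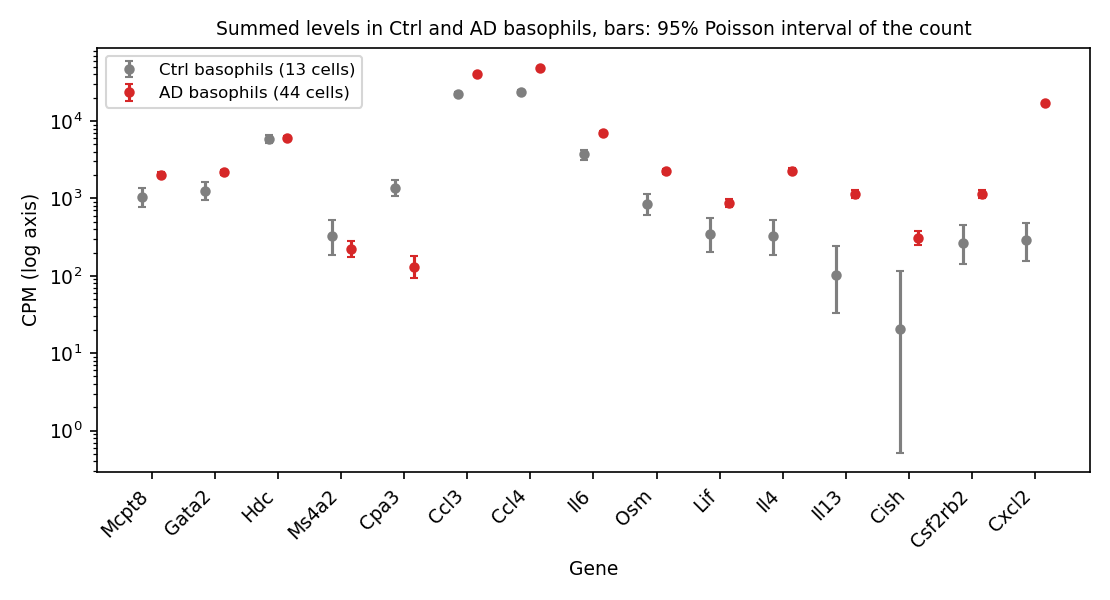
Summed level of 15 genes in the 13 Ctrl basophils (grey) and 44 AD basophils (red) in CPM on a log axis; bars are 95% Poisson intervals of the summed count and cover counting error only. Hdc and Ms4a2 overlap and Cpa3 lies lower in AD, while every other gene plotted lies higher in AD with intervals apart. The gaps of Il4, Il13, Ccl3, Il6, Gata2 and Cxcl2 were smaller without the Ctrl cell close to the mast cell limit.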

How the data were processed

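Droplet libraries (10x Genomics, 3′) of collagenase-dissociated dorsal skin were made by the authors, 1 per condition. The deposited UMI counts are whole numbers, not normalized. The matrix header names Cell Ranger 5.0.0 and the submitters' notes name Cell Ranger 3.1.0 and Seurat 5.0. The Ctrl library held 12598 barcodes and 125184653 counts, and the AD library 8778 and 76106062. Barcodes with 200 to 6000 genes and at most 10% mitochondrial counts were kept (11399 Ctrl, 8179 AD). Cells were gated as stated, with at least 3 gate UMIs, and summed to CPM. No test was run, since each condition has 1 library. Intervals are 95% exact (Clopper-Pearson for shares, Poisson for counts, conditional binomial for folds). Genes named are those of 18 lists and the 20 highest and 10 lowest ratios at 100 CPM or more. The members and lists were chosen with earlier results of these data known. Genes outside both that are named (stromal genes of few cells) were chosen after their values were seen. Scrublet, run per library, marked 395 Ctrl cells (3.47%) and 0 AD cells at its own threshold, so it had not worked in AD. No doublet was removed, and as an alternative the 5% of cells with the highest score were left out of each library (5 AD and 1 Ctrl basophils). Of the files' 33904 gene IDs, 32475 (95.8%) occur in GENCODE M21, from which coordinates were taken. The ratio code was tested on simulated counts. Python 3.11.15, scipy 1.17.1 and scanpy 1.11.5 were used.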

Additional observations from a re-analysis of the deposited data

How the results depend on the processing

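The share of AD basophils among Ptprc-positive cells lay between 3.88 and 5.18% under the 7 alternatives run, within the counting interval of the value given. The Il4 log2 ratio over other Ptprc-positive AD cells lay between 4.63 and 5.84 under 15 alternatives, the lowest with 50 CPM added. With that constant 74 genes were at least 4-fold higher and 66 lower, and with a filter of 200 CPM, which 859 genes passed, 91 and 76. Without gate, mitochondrial and ribosomal protein genes in the totals 4367 genes passed the filter, 154 higher and 401 lower, with a median of -0.70. In the 40 cells of the main cluster 139 were higher and 399 lower. The basophil share of Il4 and Il13 UMIs was 60.3 and 49.7% when 3 of the 4 gate genes were required, and 69.9 and 63.1% with the 9 cells with a Pdgfra UMI added, an alternative chosen after seeing the data, as were the main cluster and the removal of single cells. Thinning lowered the share of basophils with an Il4 UMI to 36.4%, and a gate of 6 UMIs lowered the Il4 log2 ratio of AD over Ctrl to 1.97. No paired analysis was possible because each condition has 1 library. Depth limits the Ctrl side most, where 3 UMIs over the 13 cells are 61.6 CPM.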

Other observations

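Of the 20 genes picked for the highest ratio, 7 are in no list. Among these, Sparcl1 and Rgs5 had 171 of 172 and all 73 of their UMIs in the 4 AD basophils of the stromal cluster, and are not levels of the basophils at large. Acod1, which makes itaconate, had 2513 CPM against 76.6 CPM in the other Ptprc-positive AD cells, in 36 of the 44 cells, and 0 UMIs in mast-gated cells. Amigo2, an adhesion protein gene, had 442 against 5.46 CPM in 22 cells, with 0 UMIs in the 13 Ctrl basophils, and Car8, a carbonic anhydrase-related gene, had 324 against 1.71 CPM in 18 cells, also with 0 in Ctrl. Hs3st1, a heparan sulfate sulfotransferase, had 776 CPM in basophils and 677 CPM in mast-gated cells. In the clustering, 7 ungated AD cells lay with the basophils, and 6 of them had a UMI of a gate gene.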
